A study of Rattus with 4 samples.

Results

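Transcripts that encode the proteasome and the chaperonin CCT were followed in a NONO RNA immunoprecipitation (RIP-seq) from rat cardiac cells. Members were the protein-coding rows of the deposited read table whose names match the proteasome subunit series (Psma to Psmg with a number) or Tcp1 and Cct2 to Cct8. The rule took 51 of 13731 listed genes, of which 43 are proteasome genes by name and 8 encode the CCT ring. By role, 7 encode the alpha ring and 7 the beta ring of the 20S core particle, 6 the ATPases and 11 the non-ATPase subunits of the 19S cap. A further 4 encode activators, 4 assembly chaperones and 3 immune or thymic beta subunits. Psme3ip1 matches by name and encodes a partner of an activator, not a subunit.

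The proteasome degrades proteins tagged with ubiquitin. Its 20S core is a barrel of stacked alpha and beta rings with the proteolytic sites inside, and the 19S cap recognises, unfolds and feeds in the substrate. CCT, also called TRiC, is a ring-shaped cytosolic chaperonin that folds actin and tubulin among other proteins. In cultured fibroblasts and muscle precursors these complexes are housekeeping machines, made in all cells from many separate genes whose products are needed in fixed proportions.

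The NONO IP group has 2 libraries, precipitated with an anti-NONO antibody. The cell type label assigns NONO siRNA to these libraries. The NONO input group has 2 libraries without antibody, to which that label assigns an empty vector. Precipitation and knockdown therefore cannot be told apart, no library with a control antibody was used, and nothing says whether replicates are separate cultures, so p-values measure only the spread between these libraries. The growth protocol names a rat cardiac fibroblast line, while the titles name H9C2, an embryonic rat heart myoblast line. The protocol gives harvest at 48 h after siRNA transfection for RT-qPCR and western blots, and RNA passed DNase treatment and poly(A) capture.

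Gene counts summed to 279410 and 264059 in the NONO IP libraries and to 249548 and 238776 in the inputs, so 3 reads amounted to between 10.7 and 12.6 CPM (library-size-scaled reads). Nono itself had 3 and 3 reads in the NONO IP, against 21 and 9 in the inputs. The listed fibroblast markers summed to 39274 reads in the NONO IP and 37430 in the inputs, the cardiomyocyte markers to 166 and 123, the smooth muscle markers to 709 and 1050, and the skeletal myoblast markers to 7 and 21. Endothelial and macrophage markers had at most 6 reads in a group, and the part of cell type in the results was not tested. Myod1, Myog, Myf5, Pax7 and Ckm were not among the listed genes. Replicates differed by more than sampling noise, with a chi-square per degree of freedom of 1.42 in the NONO IP and 1.12 in the inputs, and each library was counted as 1 replicate.

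Reads of the 51 members together were fewer in the NONO IP. They numbered 191 and 202 in the NONO IP libraries, against 262 and 277 in the inputs. After scaling of the libraries by TMM, which places the median tested gene near no change, their summed level was 624 ± 48.3 CPM in the NONO IP and 1283 ± 74.8 CPM in the inputs (SD, n = 2 each). The ratio of NONO IP to input was 0.486, with a 95% interval for counting error of 0.425 to 0.554. Over all 12190 listed protein-coding genes the same ratio was 0.832. Ribosomal RNA genes took 31.9% and 32.2% of the counts in the NONO IP libraries and 42.3% and 41.1% in the inputs, and their part in the ratio was not tested. As shares of all gene counts, the members took 0.0684% and 0.0765% of the NONO IP libraries and 0.105% and 0.116% of the inputs. The exact binomial 95% intervals reached up to 0.0788% and 0.0878% in the NONO IP and down to 0.0927% and 0.103% in the inputs. Reads carry no molecular identifiers, so all such intervals cover counting error only. No p-value is given for these sums, since a two-sided exact permutation test of 2 libraries against 2 cannot go below 0.333. The ratio sets a precipitate against input, so it is not by itself a change of expression in the cells. In bulk libraries fewer cells of a type and less RNA per cell cannot be told apart either.

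The CCT genes stood lower in the NONO IP than the proteasome genes did. The 8 CCT members had 16 and 10 reads in the NONO IP and 52 and 56 in the inputs, a ratio of 0.160 (interval 0.10 to 0.248). The 43 proteasome members had 175 and 192 reads in the NONO IP and 210 and 221 in the inputs, a ratio of 0.567 (0.492 to 0.653). Without Psme3ip1, which is not a subunit, it was 0.525 (0.454 to 0.607). Within the proteasome set the values varied by role. For the 31 subunits of the 20S core and 19S cap alone the ratio was 0.417 (0.352 to 0.493), from 108 and 123 reads in the NONO IP and 178 and 191 in the inputs. The 4 activator genes together had 40 and 44 reads in the NONO IP and 22 and 23 in the inputs, most of them on Psme4, and a scaled ratio of 1.24 (0.855 to 1.83).

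**Figure D1:**
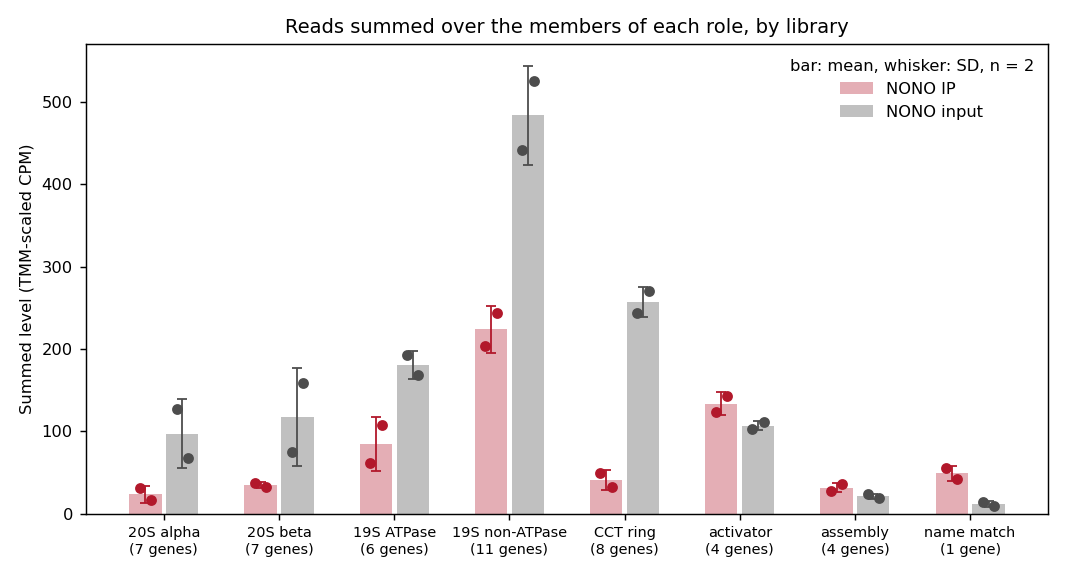
Summed level of the members of each role, in TMM-scaled CPM, with bars for the mean, whiskers for the SD and points for the 2 libraries of NONO IP (red) and NONO input (grey). The CCT ring stood at 41 CPM in the NONO IP against 257 CPM in the inputs, and the activators at 133 against 107 CPM.

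Ratios of reads within a library do not depend on how libraries are scaled. For each 100 reads of 20S and 19S subunits, the NONO IP libraries held 14.8 and 8.13 CCT reads, against 29.2 and 29.3 in the inputs. For each 100 reads of 19S subunits there were 25.6 and 13.9 reads of 20S subunits in the NONO IP and 31.9 and 32.6 in the inputs. Both ratios were lower in each NONO IP library than in either input, and the NONO IP libraries differed from each other more than the inputs did. These differences between complexes were not tested.

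The alpha ring of the core, which forms the gated entrance of the barrel, had 10 and 5 reads in the NONO IP and 27 and 14 in the inputs over 7 genes. The ratio was 0.244 (0.125 to 0.450). Psma7 was the best covered, with 4 and 3 reads in the NONO IP and 8 and 6 in the inputs. Psma4 had no read in either NONO IP library and 4 in each input. With the NONO IP set to a floor of 3 reads over the group, that is 4.0-fold lower after TMM scaling, a value that leaves out counting error. Psma1 likewise had none in the NONO IP and 4 and 2 in the inputs, 3.0-fold lower at the same floor and scaling. Psma3, with 4 and 0 reads in the NONO IP and 2 and 1 in the inputs, had a scaled ratio of 0.888 (0.150 to 6.06). The scaled ratio was below 1 for all 7 alpha genes, but for Psma2, Psma3, Psma5 and Psma6 the groups overlapped. Psma2, Psma5 and Psma6 had from 1 to 5 input reads in all and 0 to 3 NONO IP reads.

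The beta ring, which carries the proteolytic sites, had 12 and 10 reads in the NONO IP and 16 and 33 in the inputs over 7 genes, a ratio of 0.299 (0.172 to 0.504). Without input replicate 2 the ratio of mean levels was 0.463. Psmb5, the subunit with chymotrypsin-like activity, had 2 and 1 reads in the NONO IP and 3 and 9 in the inputs. Psmb7, with trypsin-like activity, had 0 and 1 in the NONO IP and 2 and 7 in the inputs. Psmb6, with caspase-like activity, had none in the NONO IP and 1 and 2 in the inputs. The groups did not overlap for these catalytic subunits, but the input libraries themselves differed widely, with input replicate 2 the higher for each. Psmb3 and Psmb4 each had 4 reads in the NONO IP and 8 in the inputs. Psmb1 was the exception, with 5 and 3 reads in the NONO IP and 2 and 3 in the inputs (ratio 1.07, 0.307 to 4.14). Psmb2 had 1 and 1 reads in the NONO IP and 1 and 3 in the inputs.

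The ATPases of the 19S base, which unfold the substrate, had 20 and 33 reads in the NONO IP and 41 and 35 in the inputs, a ratio of 0.464 (0.321 to 0.668). Psmc3 held the most of these reads, 7 and 18 in the NONO IP against 16 and 17 in the inputs. Its scaled level was 40.1 ± 26.2 CPM in the NONO IP and 78.6 ± 4.86 CPM in the inputs. Its log2 fold change of −0.98 (SE 0.43) did not pass the test by edgeR's quasi-likelihood method with Benjamini-Hochberg adjustment over all genes tested (adjusted p = 0.0589). Without NONO IP replicate 2, in which Psmc3 was the higher, it passed at −1.78 (adjusted p = 0.00596), and without NONO IP replicate 1 it was −0.36 (adjusted p = 0.540). Psmc3 was called in 4 of 16 alternatives, among them limma-voom (−1.14, adjusted p = 0.0321), the replicate block (−0.98, adjusted p = 0.0388) and the fit without input replicate 1 (−1.11, adjusted p = 0.0470). Psmc2 had 2 and 3 reads in the NONO IP and 6 and 6 in the inputs, and Psmc6 had none in the NONO IP and 2 and 2 in the inputs. Psmc4 had 3 and 1 against 3 and 3. For Psmc1, with 2 and 7 reads in the NONO IP and 6 and 4 in the inputs, and Psmc5, with 6 and 4 against 8 and 3, the groups overlapped.

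The non-ATPase subunits of the cap held more reads than any other role, 66 and 75 in the NONO IP and 94 and 109 in the inputs, a ratio of 0.463 (0.370 to 0.576). Psmd2, on chromosome 11, encodes the large base subunit on which ubiquitin-like domains dock. It had 17 and 15 reads in the NONO IP, against 35 and 41 in the inputs. Its level was 50.6 ± 2.56 CPM in the NONO IP and 181 ± 23.6 CPM in the inputs. Psmd2 fell in the NONO IP by 1.83 on the log2 scale (−1.83, SE 0.29, edgeR adjusted p = 4.42e-05). It was called lower in all 16 alternatives in which it was tested, with log2 fold changes from −2.48 to −1.40.

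Psmd3, a lid subunit on chromosome 10, had 17 and 19 reads in the NONO IP and 19 and 21 in the inputs. It did not pass, at a log2 fold change of −0.73 (SE 0.33, adjusted p = 0.0659 by edgeR), but did with limma on log2(RPKM + 1) (−1.30, adjusted p = 0.0272) and log2(RPKM + 0.1) (−1.39, adjusted p = 0.0264). Psmd13, another lid subunit, had 2 and 4 reads in the NONO IP and 7 and 9 in the inputs, and Psmd4, a ubiquitin receptor, had 5 and 6 against 7 and 8. Psmd14, the deubiquitinase of the lid, had 1 and 0 reads in the NONO IP and 1 and 3 in the inputs. The lid subunits Psmd11 and Psmd12 had about as many scaled reads in the NONO IP as in the inputs, at ratios of 1.11 (0.366 to 3.72) and 0.999 (0.420 to 2.49). Psmd1 (1 and 7 reads in the NONO IP, 6 and 5 in the inputs), Psmd7 (3 and 7, against 7 and 5), Psmd8 (2 and 6, against 4 and 6) and Psmd6 (3 and 1, against 1 and 2) had ratios between 0.484 and 0.888 with intervals that include 1. Without Psmd2 the remaining 16 genes of the 19S cap had a ratio of 0.531 (0.430 to 0.657).

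**Figure D2:**
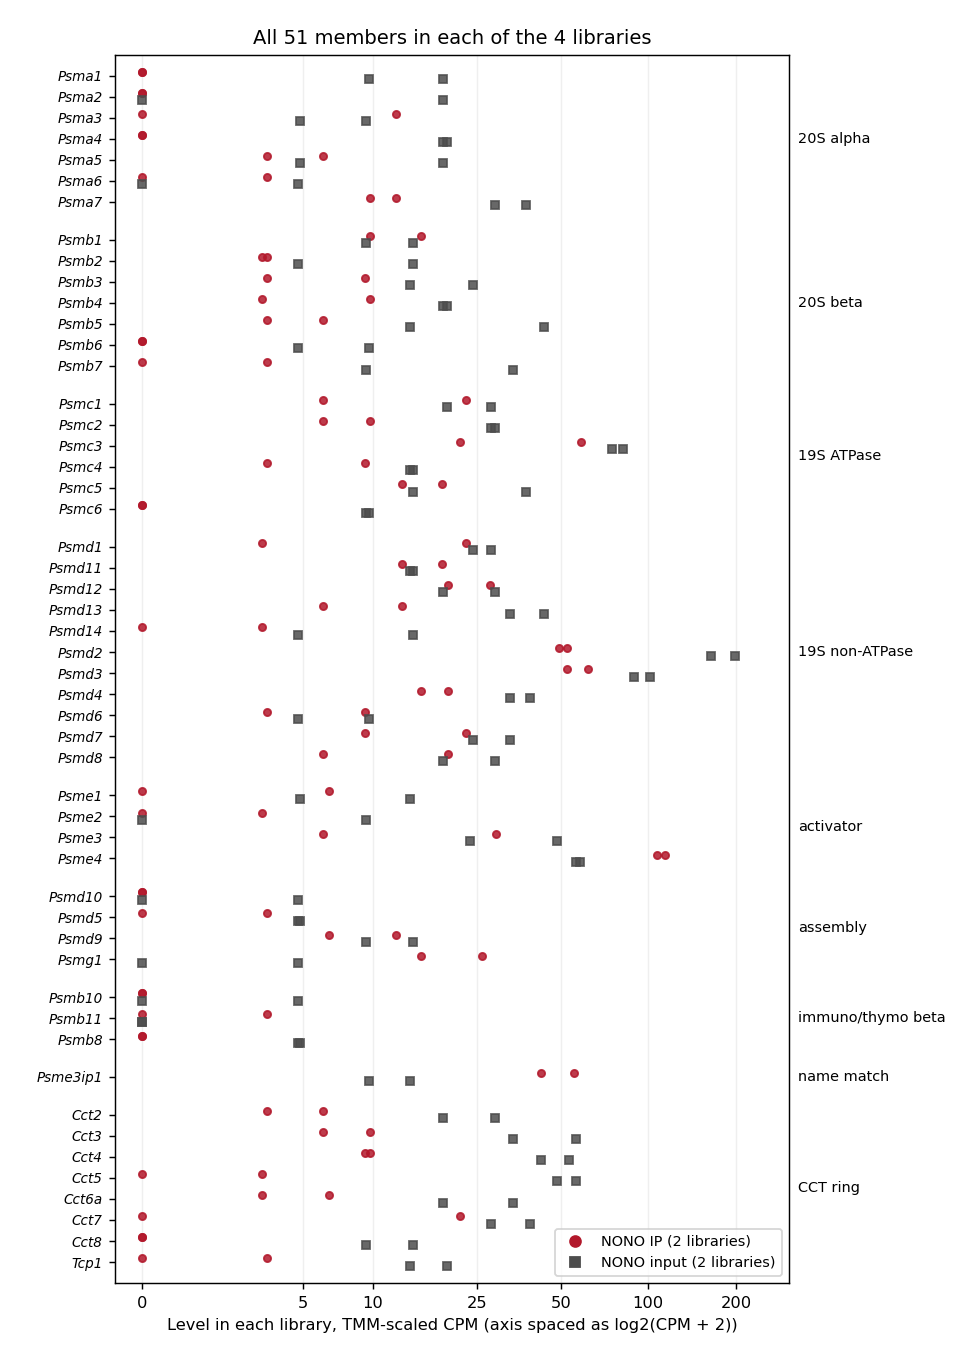
Level of each of the 51 members in each library, in TMM-scaled CPM on an axis spaced as log2(CPM + 2), with NONO IP as red circles and NONO input as grey squares, grouped by role. Every CCT gene has both circles to the left of both squares, whereas for Psme4, Psme3ip1 and Psmg1 the circles lie to the right.

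Activators bind the ends of the core in place of the 19S cap. Psme4, on chromosome 14, encodes PA200, a large nuclear activator. It had 37 and 33 reads in the NONO IP and 12 and 12 in the inputs. Its level was 111 ± 4.76 CPM in the NONO IP and 57.1 ± 1.09 CPM in the inputs, with no overlap between the groups. Psme4 rose in the NONO IP by 0.95 on the log2 scale (SE 0.32, edgeR adjusted p = 0.0164). The direction held in all 16 alternatives, from 0.22 to 1.38, but the call held in 7 of them, with adjusted p-values from 0.00108 to 0.584. The call ended with an offset for gene length (0.35, adjusted p = 0.378), with the DESeq2 Wald test (0.96, adjusted p = 0.187), on the RPKM scales and without NONO IP replicate 1 (0.97, adjusted p = 0.0502), input replicate 1 (0.87, adjusted p = 0.0931) or input replicate 2 (0.91, adjusted p = 0.0724). For each 100 reads of 20S and 19S subunits there were 34.3 and 26.8 Psme4 reads in the NONO IP and 6.74 and 6.28 in the inputs.

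The other activators, the PA28 subunits, had values on the other side of 1 from Psme4, a contrast that was not tested. Psme3, the nuclear PA28 gamma subunit, had 2 and 9 reads in the NONO IP and 5 and 10 in the inputs. Psme1 and Psme2, the cytosolic alpha and beta subunits induced by interferon, had 0 and 2, and 1 and 0, reads in the NONO IP, against 3 and 1, and 2 and 0, in the inputs. Together the 3 genes had 9.26 and 35.8 CPM in the NONO IP and 46.9 and 53.0 CPM in the inputs. The ratio of these means was 0.451, and leaving out NONO IP replicate 1 gave 0.716, leaving out replicate 2 of that group 0.185. The immune beta subunits Psmb8 and Psmb10 and the thymic Psmb11 had 1 read in the NONO IP and 3 in the inputs between them, at or under the floor in each group.

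Psme3ip1, on chromosome 19, encodes a nuclear protein that binds PA28 gamma. It had 18 and 13 reads in the NONO IP and 3 and 2 in the inputs, at 48.9 ± 9.35 CPM in the NONO IP and 11.9 ± 3.14 CPM in the inputs. It passed the count filter only through its NONO IP reads. Psme3ip1 rose by 2.0 on the log2 scale (SE 0.54, edgeR adjusted p = 0.00433). The call held in 10 of 16 alternatives, with adjusted p-values from 0.000773 to 0.141, and log2 fold changes lay between 1.02 and 2.42. It ended on the RPKM scales, with the DESeq2 Wald test (2.04, adjusted p = 0.113), without NONO IP replicate 1 (1.85, adjusted p = 0.136) and without input replicate 2 (1.71, adjusted p = 0.0608). In the RefSeq gene table a snoRNA gene, LOC120098678, lies inside Psme3ip1, and Rspry1 overlaps it. Rspry1 had 15 and 14 reads in the NONO IP and 6 and 4 in the inputs (log2 fold change 0.94, SE 0.46, edgeR adjusted p = 0.0954). The part of these neighbours in the Psme3ip1 reads was not tested. Such neighbours are not particular to Psme3ip1, since 17 of the 51 members have an overlapping gene and 5 host a snoRNA gene. Cct3, Cct6a, Psmc1 and Tcp1 are among these hosts, and each had a lower scaled level in the NONO IP.

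Of the assembly chaperones, Psmg1 stood apart. It encodes PAC1, which helps to form the alpha ring, and had 5 and 8 reads in the NONO IP, against 1 and 0 in the inputs. That is a TMM-scaled ratio of 8.66, with a counting interval of 1.30 to 368. The chaperones of the 19S base Psmd9, Psmd5 and Psmd10 had 6, 1 and 0 reads in the NONO IP and 5, 2 and 1 in the inputs, and showed no difference detectable at this depth.

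For every CCT gene the TMM-scaled level in both NONO IP libraries was below that in both inputs. Cct5, the epsilon subunit, on chromosome 2, had 1 and 0 reads in the NONO IP and 12 and 10 in the inputs. Cct5 fell by 4.68 on the log2 scale (−4.68, SE 0.73, edgeR adjusted p = 3.93e-05). The fitted value of so low a count depends on the prior count. As a ratio of TMM-scaled counts, Cct5 was 33.0-fold lower in the NONO IP, with an interval of 5.34 to 1363. Cct5 passed the count filter only through its input reads, so its call does not stand for the CCT genes. It was called lower in each of the 14 alternatives in which it was tested, and was not tested without either input replicate. Cct3, the gamma subunit, had 2 and 3 reads in the NONO IP and 12 and 7 in the inputs. Cct4, the delta subunit, had 3 and 3 in the NONO IP and 9 and 11 in the inputs, the most reads of the 8 genes. These ratios came to 0.175 (0.0511 to 0.485) for Cct3 and 0.200 (0.0657 to 0.516) for Cct4.

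The remaining CCT subunits were sparser. Cct2 had 2 and 1 reads in the NONO IP and 4 and 6 in the inputs. Cct6a had 1 and 2 against 4 and 7, and Tcp1, the alpha subunit, 0 and 1 against 3 and 4. Cct8 had none in the NONO IP and 2 and 3 in the inputs. With the NONO IP at the floor of 3 reads, Cct8 was 2.50-fold lower after TMM scaling, without counting error. It was not called in the fit with no count filter (edgeR adjusted p = 0.0975). Cct7 was the most uneven, with 7 and 0 reads in the NONO IP and 6 and 8 in the inputs, so that NONO IP replicate 1 alone held its NONO IP reads. Without Cct5 the other 7 genes had a ratio of 0.194 (0.119 to 0.305).

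Per unit of gene length, the inputs held CCT and the 20S core at like levels, and the 19S cap somewhat higher. The deposited RPKM values, summed over a role and divided by its number of genes, came in the inputs to 8.78 ± 0.458 for CCT, 8.74 ± 1.04 for the 20S core and 11.1 ± 0.634 for the 19S cap (SD, n = 2). In the NONO IP they came to 0.838 ± 0.179, 1.38 ± 0.175 and 3.33 ± 0.819 RPKM. Over all 12190 listed protein-coding genes the same measure was also lower, at 3.88 RPKM in the NONO IP against 8.10 RPKM in the inputs. The order of the complexes in the inputs lay within the spread between libraries for CCT and the 20S core. The 19S cap stood above both in either group, and in the NONO IP CCT stood below the 20S core. Among single genes in the inputs the highest RPKM were those of Psmd2 at 35, Psmc3 at 26.8, Psmd3 at 21.9 and Psma7 at 20.5. Psme4 had 3.14 RPKM in the NONO IP and 2.56 RPKM in the inputs.

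Few members could be tested one by one. The count filter left 2920 genes, the least covered of which had 23 reads over the 4 libraries. It asks for enough reads in single libraries, so Cct3 with 24 and Cct4 with 26 reads in all were not tested. The tested genes held 6 of the 51 members, of which 2 rose (33.3%), 2 fell (33.3%) and 2 did not pass. Over all 2920 genes 29.8% were called higher and 26.9% lower, so these shares are near the background. Psme3ip1 passed the filter only through its NONO IP reads and Cct5 only through its input reads. Psmc3 had enough reads in both inputs but not in NONO IP replicate 1 (7 reads), so its NONO IP reads alone would not have passed it. The 6 therefore do not stand for the members as a whole.

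All 51 members enter a fit with no count filter over 13731 genes. Its median log2 fold change over all genes was 0.30, against 0.02 in the filtered test. With no count filter, 3 members were called higher (5.88%, background 8.59%) and 7 lower (13.7%, background 4.73%) by edgeR at an adjusted p under 0.05. Besides Psme4 and Psme3ip1, Psmg1 was called higher (3.08, SE 1.01, adjusted p = 0.0317). Besides Psmd2 and Cct5, those called lower were Psma4 (adjusted p = 0.0100), Psma1 (0.0464), Psmb7 (0.0360), Cct3 (0.0126) and Cct4 (0.0149). Psma1, Psma4 and Psmb7 rest on 6, 8 and 9 input reads. Where members are tested as log2(RPKM + 1) with limma, 18 of 46 were called lower (background 18.8%) and 0 higher (background 5.19%). With a pseudocount of 0.1 the counts were 16 of 46 lower (background 15.1%) and 0 higher (background 4.59%). With a pseudocount of 1 and no filter, 8 of 51 were lower (background 4.11%) and 0 higher (background 0.961%). With the DESeq2 Wald test, 2 of 6 were lower (background 14.5%) and 0 higher (background 15.5%). With the length offset 2 of 6 were lower (background 26.8%) and 1 higher (background 22.0%). The same counts held with a replicate block added (backgrounds of 27.6% and 22.2%). Over all genes in the RPKM tests the median log2 fold change was −0.61, −0.82 and −0.22, so calls on that scale lean to the lower side for all genes.

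Another reading needs no test, though it rests on the TMM-scaled levels. Of the 31 members with at least 10 reads, 20 had both NONO IP libraries below both inputs (64.5%), 3 had both above (9.68%) and 8 overlapped. Among the 6124 listed protein-coding genes with as many reads, 34.9% lay below and 29.3% above. All 6 CCT members in this count lay below, as did 14 of 25 proteasome members. Cct7 counts as below, though its 7 reads in NONO IP replicate 1 exceeded the 6 in input replicate 1 before scaling.

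Among tested genes, gene length went along with the change in the NONO IP. Dividing counts by RPKM gives each gene's length relative to the median listed gene, and 48 of the 51 members were shorter than the median protein-coding gene. They ranged from 0.223 (Psmb6) to 3.61 (Psme4), with a median of 0.458. Among tested protein-coding genes, the shortest 926 had a median log2 fold change of −0.58, with 14.7% higher and 41.7% lower. The longest 926 had a median of 0.46, with 39.8% higher and 19.8% lower. Psme4, the longest member, is the only one among the lengths of the longest group, and 48 members are among those of the shortest. Over 2777 tested protein-coding genes Spearman's rho of length and log2 fold change was 0.319, given as a description, since the genes share the same 4 libraries. Over the 31 members with at least 10 reads, rho of length and count ratio was 0.271. Median relative length was 0.613 for CCT, 0.460 for the 19S cap and 0.273 for the 20S core. Their ratios of NONO IP to input were 0.160, 0.463 and 0.274. An offset for length left Psmd2 (−1.69, edgeR adjusted p = 0.000333) and Cct5 (−4.23, adjusted p = 0.000516) called lower, and brought Psme4 to 0.35. Cct5 was the only CCT gene in that fit. The part of gene length in the differences of these genes and complexes was not tested.

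**Figure D3:**
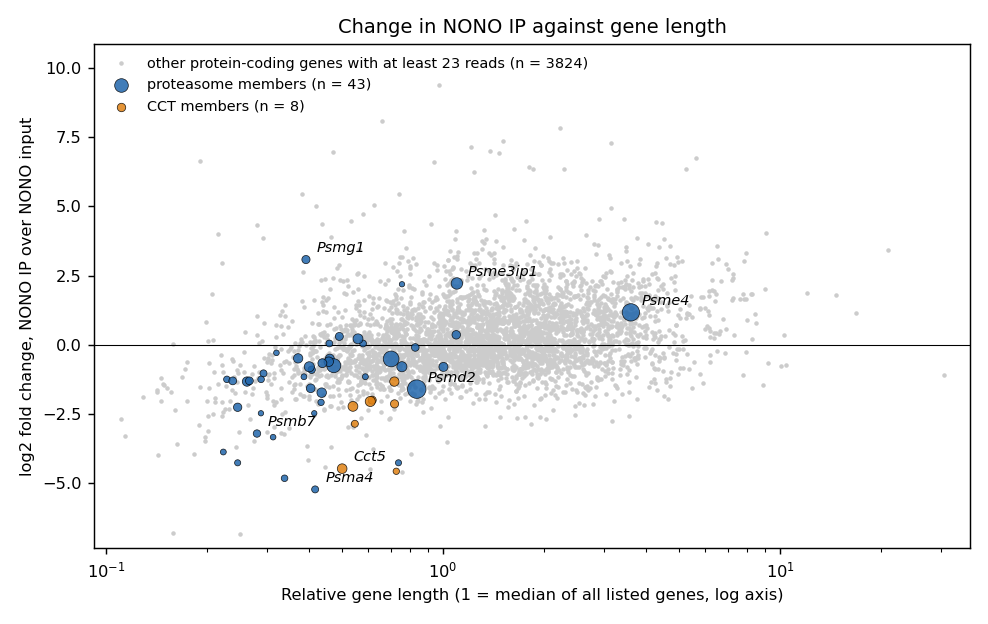
Log2 fold change of NONO IP over NONO input in the fit with no count filter, against relative gene length on a log axis, for all 51 members (area of the circle scaled by reads) and for 3824 other protein-coding genes with at least 23 reads (grey). Most members lie at the short end and below 0, CCT genes lie between −1.34 and −4.58, and Psme4 lies at a length of 3.61. The median over all genes in this fit was 0.30, not 0.

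The scale of the comparison matters for the size of these differences. With library totals in place of TMM, the median log2 fold change of all tested genes was 0.45 in place of 0.02, and the summed log2 ratios were −0.38 for the proteasome members and −2.22 for CCT, against −0.82 and −2.65 with TMM. On the deposited RPKM scale, whose library total is 2.38-fold larger in the NONO IP, they were −1.84 and −3.39. The direction was the same on each scale, and CCT was the lower on each.

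Genes related to these complexes were set beside them. The actin and tubulin genes, whose products CCT folds, were tested at 10 of 14 and all 10 fell, with a median of −2.25, where 26.9% of all tested genes fell. Of these, Tuba1a, Tuba1b, Tuba1c, Tubb2a, Tubb4b and Tubb6 passed the count filter only through their input reads. The filter thus in part set this share. All 10 have relative lengths between 0.402 and 0.691, in the range of the shortest tested protein-coding genes, of which 41.7% fell. Actb had 200 and 210 reads in the NONO IP and 345 and 379 in the inputs (−1.41, SE 0.11, edgeR adjusted p = 7.99e-09). Acta2, smooth muscle actin, had 166 and 153 against 264 and 296 (−1.40, SE 0.12, adjusted p = 1.92e-08), and Actg1 had 35 and 40 against 100 and 112 (−2.08, SE 0.19, adjusted p = 5.93e-08). Tubb5, a beta tubulin, had 33 and 33 against 70 and 79 (−1.76, SE 0.21, adjusted p = 1.75e-06). Actin and tubulin paralogs are near-identical in parts, so reads may be split between them or counted for several of them. Tuba1a had 7 and 2 reads in the NONO IP and 19 and 14 in the inputs, and Tuba1c 7 and 1 against 19 and 14. The 10 genes may therefore not be separate results, which was not tested. For each 100 reads of these clients there were 3.31 and 2.08 CCT reads in the NONO IP and 5.59 and 5.56 in the inputs. For the 20S and 19S subunits the same ratio lay the other way, at 22.3 and 25.6 reads in the NONO IP and 19.1 and 18.9 in the inputs.

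Of 22 listed genes of ubiquitin delivery and proteasome regulation, 11 were tested, 2 rose, 1 fell and 8 did not pass, with a median of −0.03. The shares of 18.2% higher and 9.09% lower were each below those over all tested genes, 29.8% and 26.9%. Nfe2l2, a transcription factor of the stress response that can raise proteasome genes, had 57 and 61 reads in the NONO IP and 8 and 11 in the inputs (2.04, SE 0.31, edgeR adjusted p = 3.11e-05). Rad23b, a shuttle of ubiquitinated proteins, had 69 and 42 against 22 and 20 (0.81, SE 0.29, adjusted p = 0.0221). Ubb, a polyubiquitin gene, had 5 and 3 reads in the NONO IP and 25 and 35 in the inputs, and fell (−3.45, SE 0.43, adjusted p = 3.92e-06). Nfe2l2 passed the count filter only through its NONO IP reads and Ubb only through its input reads. Nfe2l1, the main activator of proteasome genes when the proteasome is blocked, had 72 and 77 reads in the NONO IP and 55 and 43 in the inputs and did not pass (0.02, SE 0.20, adjusted p = 0.943). Nfe2l1 falls outside the rule for named genes and was picked with its value known.

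Of 22 other chaperone genes, 11 were tested, 2 rose, 4 fell and 5 did not pass (median −0.55). These shares, 18.2% higher and 36.4% lower, stand against 29.8% and 26.9% over all tested genes. Hspa8, the constitutive HSC70, had 3 and 1 reads in the NONO IP and 37 and 37 in the inputs (−4.70, SE 0.45, edgeR adjusted p = 1.55e-07). Hsp90ab1 had 46 and 48 against 71 and 68 (−1.15, SE 0.19, adjusted p = 7.61e-05), and Hspa9, the mitochondrial HSP70, 6 and 5 against 16 and 15 (−2.05, SE 0.43, adjusted p = 0.000606). Dnajb6, a co-chaperone of HSP70, had 23 and 29 against 4 and 5 (1.92, SE 0.45, adjusted p = 0.0016). Hspa8 and Hspa9 passed the count filter only through their input reads, and Dnajb6 only through its NONO IP reads. None of the 7 listed genes of prefoldin, which hands actin and tubulin to CCT, and of CCT cofactors was tested; together they had 16 and 13 reads in the NONO IP and 15 and 17 in the inputs.

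**Figure D4:**
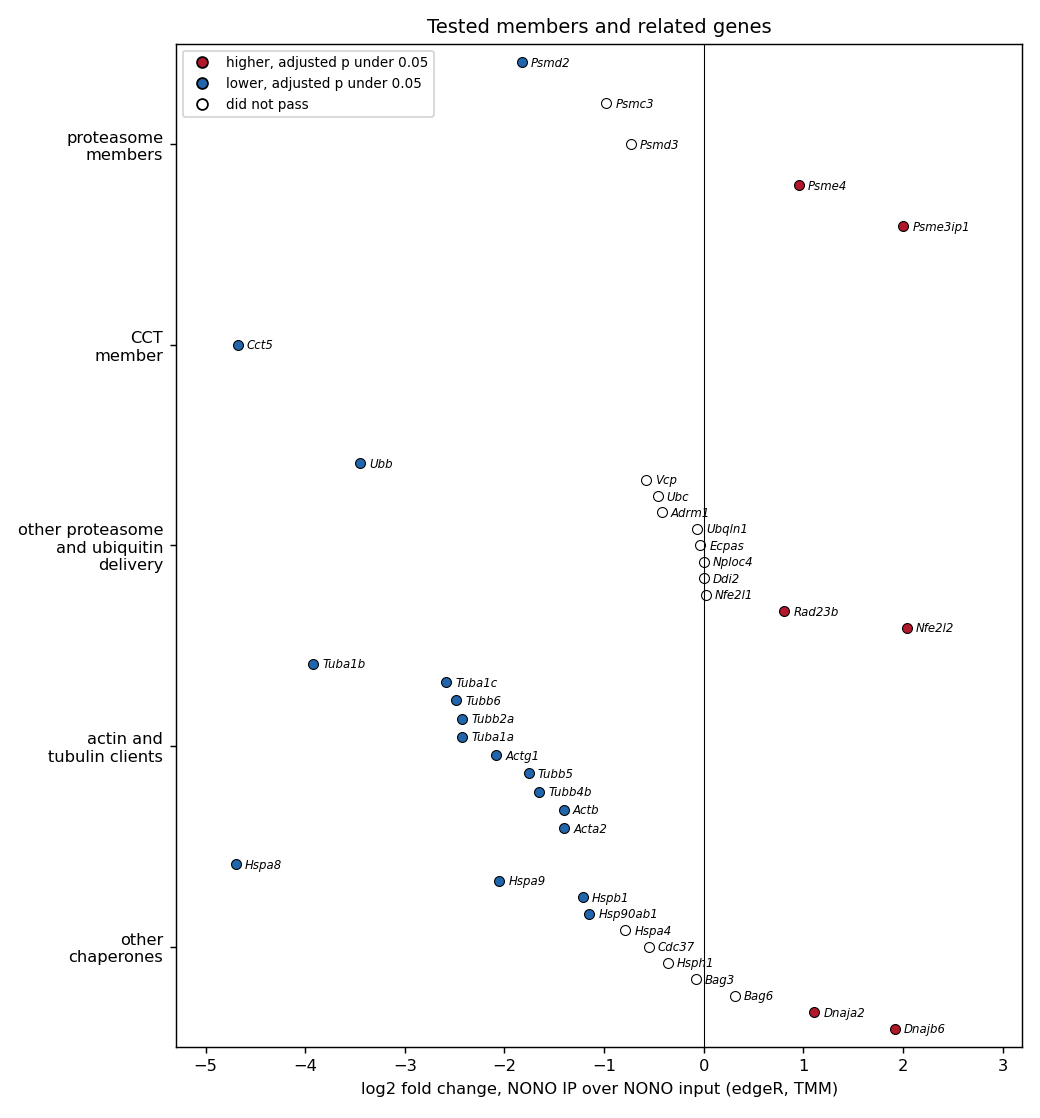
Log2 fold change of NONO IP over NONO input (edgeR, TMM) for each tested member and each tested gene of the related lists, coloured by call. All 10 actin and tubulin genes and Cct5 lie at −1.40 or below, while the genes called higher are Psme4, Psme3ip1, Rad23b, Nfe2l2, Dnaja2 and Dnajb6.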

How the data were processed

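The authors deposited a table of counts, whole reads per gene, and a table of RPKM values, over the same genes and 4 libraries. The tools HOMER and HISAT2 and the build mRatBN7.2 are named, without roles, per the submitters' processing notes. No source used here states the strand setting, the counting program or the treatment of multiply placed reads, so reads shared with pseudogenes or overlapping genes are uncertain. Symbols and chromosomes came from the deposited tables; the RefSeq table of GRCr8 held all 51 member symbols and was used only for neighbours.

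NONO IP was tested against NONO input with edgeR 4.0.16 (R 4.3.3) by quasi-likelihood after filterByExpr and TMM on all gene counts, adjusted by Benjamini-Hochberg over all 2920 genes tested, at a threshold of 0.05. SE is the log2 fold change over the root of F. Pooled reads have exact conditional 95% intervals at TMM-scaled totals. Relative length came from 461 genes with at least 30 counts per library. The code was tested on simulated data.

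Members and lists were chosen with earlier results of these data known. Full statistics go to members past the threshold, the best covered of each role if tested, and up to 4 genes of each related list. Alternatives were other scalings, filters and tests (DESeq2 1.42.0, limma 3.58.1, RPKM with pseudocounts 1 and 0.1), a loess length offset, a replicate block and leaving out each library (for role sums, added after seeing the data). One gene of a related list is not reported here and enters neither that list's counts nor its plot.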

Additional observations from a re-analysis of the deposited data

How the results depend on the processing

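Of the members tested, 2 were called higher and 2 lower. The number called higher was 0 with the DESeq2 Wald test, 0 on each RPKM scale (pseudocount 1, pseudocount 0.1, and pseudocount 1 without filter), and 1 with the length offset with or without the replicate block. It ranged from 0 to 2 when each library was left out, being 0 without NONO IP replicate 1 or input replicate 2 and 1 without input replicate 1. The number called lower was 7 with no count filter, 18 on log2(RPKM + 1), 16 on log2(RPKM + 0.1), 8 on log2(RPKM + 1) without filter and 3 (Psmc3 added) with limma-voom or the replicate block, and ranged from 1 without input replicate 2 to 4 without NONO IP replicate 2. Cct5 was not among the genes tested without either input replicate. More members enter the tests without a filter and on the RPKM scales (46 or 51) than in the test reported (6). No member had 50 counts in 2 libraries, so that filter gave no value. The summed log2 ratio of the proteasome members, −0.82, was −0.38 with library totals, −0.55 with the total of protein-coding counts, −1.84 as a sum of RPKM and −1.26 over 20S and 19S subunits alone, a set added after seeing the data; without single libraries it ranged from −0.93 to −0.71. For CCT, −2.65, it was −3.39 as a sum of RPKM and ranged from −2.98 to −2.38 without single libraries. The cause of these shifts was not tested. No direction of the 6 tested members turned. Replicates share only a number: the deviations of equal numbers correlated at 0.03 over 2641 genes with at least 40 counts. With the replicate block Psmc3 passed (−0.98, adjusted p = 0.0388), and no other tested member changed its call. Depth limits the rest, since 45 members lay under the filter.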
